A study of Mus musculus with 9 samples.

Results

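Transcripts of 10 genes of the unfolded protein response and the integrated stress response were followed in mouse retina. The genes were taken by symbol: 6 belong to the integrated stress response (Atf4, Ddit3, Trib3, Chac1, Asns and Sesn2) and 4 to the unfolded protein response (Atf6, Xbp1, Hspa5 and Hsp90b1). They fill 11 of the 22337 gene entries of the deposited table, because the symbol Ddit3 stands on 2 entries. All 10 genes passed the filter on low counts. The second Ddit3 entry, a short gene model lying within the first one, held at most 0.93 estimated counts in a library and was not tested.

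The unfolded protein response answers misfolded protein in the endoplasmic reticulum (ER). Its sensors are PERK, IRE1 and ATF6. ATF6 is cut in the Golgi to release a transcription factor, IRE1 splices the Xbp1 messenger RNA, and PERK phosphorylates the translation factor eIF2. In the integrated stress response, PERK and other eIF2 kinases, which sense amino acid shortage, double-stranded RNA or haem shortage, lower overall translation while ATF4 protein is made in larger amounts from its messenger RNA. Splicing, cleavage, phosphorylation and translation are not read by gene-level RNA counts, so the values below are messenger RNA levels only. Photoreceptors fold large amounts of rhodopsin in the ER, and this pathway has been much studied in retinal degeneration.

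Retinas were collected at P28 in all groups, with 3 libraries per group. WT mice were C57 BL/6J animals that were not treated. The rd10 mice carry a mutation in Pde6b, which encodes a rod phosphodiesterase subunit, and they received 1 μl of either normal saline (NS) or MSC-EVs into the vitreous of both eyes at P14 and again at P21. MSC-EVs are extracellular vesicles released by mesenchymal stem cells, here from human umbilical cord. The WT animals came from another supplier and had no injection, so genotype, source and injection cannot be told apart in the comparisons with WT. The mutation is a point mutation and the level of Pde6b mRNA does not check the label. Nothing in the labels says whether the libraries came from separate animals, and p-values measure only the spread between these libraries, which may be technical. The Y-linked RNA given below shows only that the MSC-EVs libraries were not all of the same animal.

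Members of these pathways are switched on through short DNA elements, and 5 promoters are shown because they carry such elements within the window read. The windows run from 250 bases before to 50 bases after the start in RefSeq on GRCm38.p6, which gave a promoter for 9 of the 10 genes (all but Atf6). Capitals mark matches, searched on both strands, to the ER stress element ERSE (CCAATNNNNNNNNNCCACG), the core UPRE (TGACGTG) and the C/EBP-ATF response element, a type of site that ATF4 binds (TGATGNAA). None of the matches overlapped another.
Hspa5: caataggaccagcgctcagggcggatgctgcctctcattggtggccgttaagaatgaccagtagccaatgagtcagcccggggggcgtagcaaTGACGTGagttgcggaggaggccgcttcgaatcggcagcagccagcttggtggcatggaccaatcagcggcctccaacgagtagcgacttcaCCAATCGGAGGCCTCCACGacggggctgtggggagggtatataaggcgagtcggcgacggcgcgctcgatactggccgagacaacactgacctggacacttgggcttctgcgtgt
Hsp90b1: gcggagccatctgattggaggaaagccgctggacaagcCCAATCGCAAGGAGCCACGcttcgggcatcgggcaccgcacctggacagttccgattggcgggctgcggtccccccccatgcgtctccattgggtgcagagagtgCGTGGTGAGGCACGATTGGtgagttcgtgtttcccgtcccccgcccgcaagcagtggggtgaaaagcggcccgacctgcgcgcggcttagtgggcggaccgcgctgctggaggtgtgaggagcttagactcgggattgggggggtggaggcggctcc
Asns: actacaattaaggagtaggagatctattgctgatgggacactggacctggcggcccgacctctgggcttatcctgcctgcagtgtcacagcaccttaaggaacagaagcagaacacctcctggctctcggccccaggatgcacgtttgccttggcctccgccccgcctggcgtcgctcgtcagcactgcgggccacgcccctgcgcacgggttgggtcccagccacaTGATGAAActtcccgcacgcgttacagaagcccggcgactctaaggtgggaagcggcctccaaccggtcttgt
Chac1: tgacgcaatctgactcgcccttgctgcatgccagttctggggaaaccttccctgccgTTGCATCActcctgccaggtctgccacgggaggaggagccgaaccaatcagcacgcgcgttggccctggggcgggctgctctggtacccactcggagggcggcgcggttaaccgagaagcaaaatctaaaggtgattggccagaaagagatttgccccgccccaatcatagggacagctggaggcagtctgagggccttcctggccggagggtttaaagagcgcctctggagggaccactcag
Trib3: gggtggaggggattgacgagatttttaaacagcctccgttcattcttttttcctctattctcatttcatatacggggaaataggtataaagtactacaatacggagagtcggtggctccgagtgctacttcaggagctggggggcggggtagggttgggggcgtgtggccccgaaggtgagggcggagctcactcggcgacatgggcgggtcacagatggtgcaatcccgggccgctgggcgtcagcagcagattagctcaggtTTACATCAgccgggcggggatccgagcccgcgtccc

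The Hspa5 window lies at chr2:34771840-34772139 on the + strand, with an ERSE from base -65 and a UPRE core from base -157 relative to the start. The Hsp90b1 window, chr10:86705395-86705694 on the - strand, held 2 ERSE matches, from base -212 and, in the reverse orientation, from base -107. ERSE occurred in 0.119% of 32851 promoters of the same length and the UPRE core in 2.01%. The C/EBP-ATF element, present in 3.97% of promoters, was found in Asns (chr6:7693160-7693459, - strand) from base -23, in Chac1 (chr2:119350992-119351291, + strand) from base -193 and in Trib3 (chr2:152344011-152344310, - strand) from base 15 after the start. The variant ERSE-II (ATTGGNCCACG), found in 0.0365% of promoters, was in 0 of the 9. These are matches of letters within the window and do not show binding.

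Library depth ran from 19491717 to 62532343 estimated counts, with MSC-EVs replicate 3 the deepest. Levels are given as CPM, that is, counts relative to library size after scaling with TMM factors, and comparisons used the 6 libraries of both groups in edgeR's quasi-likelihood test, a gene being called at a Benjamini-Hochberg adjusted p under 0.05 over all genes tested. The labelled tissue was matched by its markers: in NS-treated rd10 against WT, 14 of 14 rod genes fell, from a summed 81830 to 87750 CPM in WT to 16650 to 23810 CPM, and no rod marker was at 0. All 12 microglia genes rose, from a summed 79.1 to 84.8 CPM to 460.3 to 561.4 CPM, as did 8 of 8 gliosis genes, 8 of 10 Müller glia genes and 6 of 8 endothelial genes. Of 21 inner retinal neuron genes 14 rose and 1 fell, and of 9 cone genes 2 rose and 3 fell. Over all genes tested in this comparison 31.2% were called higher and 30.1% lower, and the cone counts lay near these shares. The 9 monocyte and neutrophil genes summed to at most 0.269 CPM in WT. In NS-treated rd10 they summed to 4.49 to 13.9 CPM, with 2 genes at 0 in all its libraries. The 3 that passed the filter did so through the NS libraries, so that their being called higher was fixed by the filter. Pigment epithelium and ciliary body genes summed to 64.9 to 263 CPM in NS-treated rd10 and 76.6 to 218 CPM with MSC-EVs. Of 9 tested 3 rose in NS-treated rd10 against WT, near the share of all genes, while 0 of 8 lens genes were called (0 also at an unadjusted p under 0.05). Lens genes varied between libraries, however, and summed to 45.9, 164 and 38.6 CPM in WT replicates 1 to 3. In NS-treated rd10 they summed to 44.4 to 58.85 CPM, and in MSC-EVs replicates 1 to 3 to 13.7, 147 and 51.5 CPM. Y-linked genes summed to 183 and 189 CPM in MSC-EVs replicates 1 and 2 and to at most 0.501 CPM in every other library. Such levels mark male tissue in these 2 libraries alone. The MSC-EVs libraries thus did not all come from the same animal, and sex was not balanced between the groups.

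Per transcript length, in the deposited FPKM, Atf4 was the highest of the 10 genes in WT with 170 ± 16.2 FPKM (SD, n = 3). Hsp90b1 (101 ± 2.82 FPKM) and Hspa5 (83.1 ± 1.3 FPKM), the main soluble chaperones of the ER, followed. Xbp1 stood at 35.8 ± 2.56, Ddit3 at 29.9 ± 2.59, Asns at 25.4 ± 0.652, Atf6 at 17.2 ± 0.721 and Sesn2 at 6.89 ± 0.505 FPKM. Trib3 (2.1 ± 0.176 FPKM) and Chac1 (1.98 ± 0.382 FPKM) were lowest and their WT libraries overlapped, and no other neighbours in this order overlapped there. In NS-treated rd10 the order differed in that Chac1 (2.97 ± 0.684 FPKM) and Trib3 (2.56 ± 0.378 FPKM) changed places with overlapping libraries, and Hsp90b1 and Hspa5 also overlapped there.

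**Figure D1:**
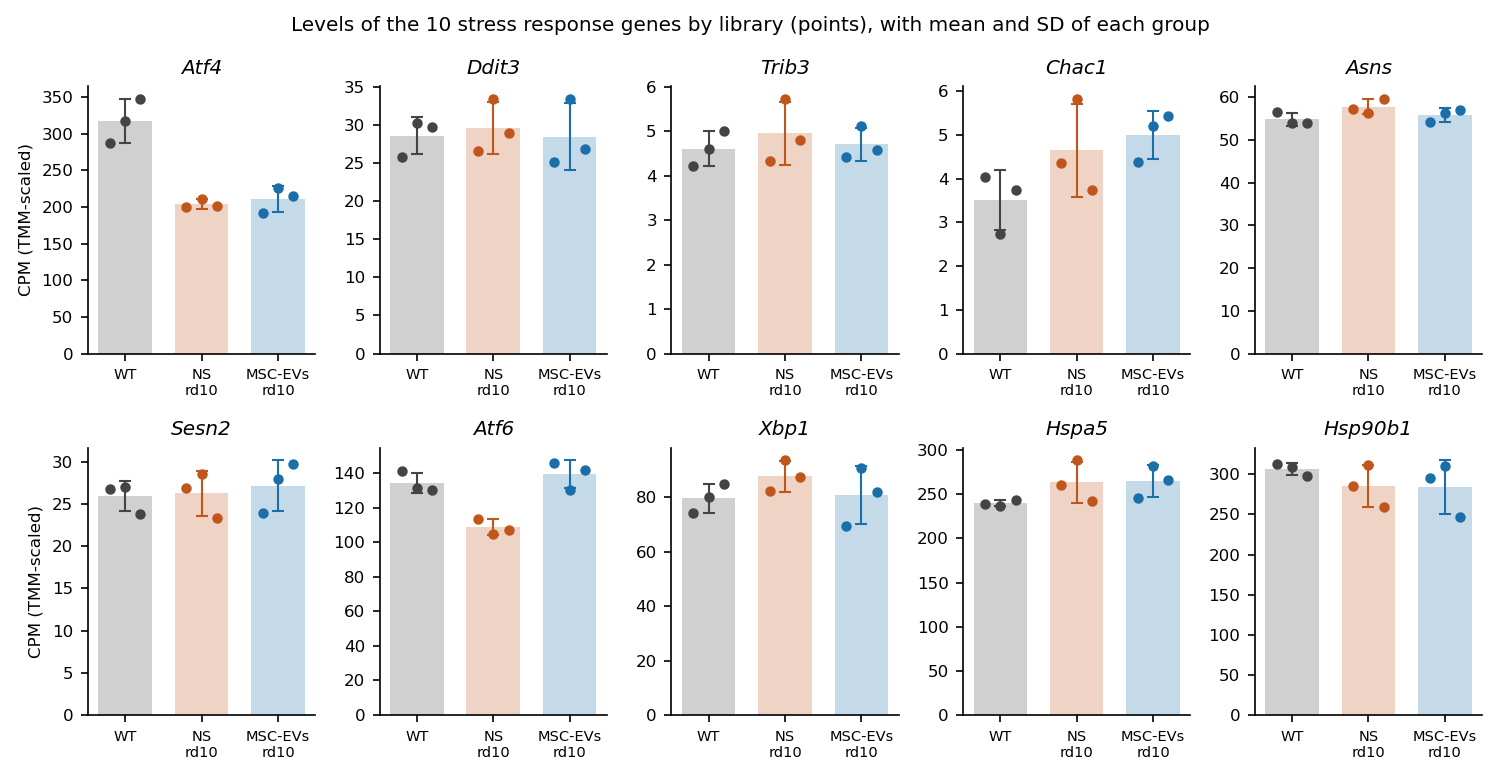
Level of each of the 10 genes in CPM on a linear axis from 0 by group, with points for single libraries, bars for means and error bars for SD (n = 3). Atf4 separates WT from both rd10 groups, Atf6 is lowest in NS-treated rd10, and the libraries of the remaining genes overlap between groups, apart from Chac1 and Hspa5 between WT and MSC-EVs-treated rd10.

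The first comparison asked what the degenerating retina, treated with saline, showed against WT. Of the 10 genes 0 rose and 2, Atf4 and Atf6, fell, where 31.2% of the 14644 genes tested were called higher and 30.1% lower. The members' median log2 fold change was 0.06, beside 0.0053 over all genes. No member differed 2-fold or more, whereas 9.16% of all genes were called at least 2-fold higher and 3.56% at least 2-fold lower. Atf4 and Atf6 were also the 2 of 10 whose groups did not overlap, which was so in 67.1% of all genes. None of the 8 other members had an unadjusted p under 0.05, and DESeq2 likewise called 0 members higher.

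Atf4, on chromosome 15 from 80255184 to 80257541 (+ strand, GENCODE M21, GRCm38), encodes the transcription factor at the centre of the integrated stress response. Its level was 287, 317 and 347 CPM in the WT libraries and 200, 211 and 201 CPM in NS-treated rd10. Every WT library lay above every NS library. The fall came to 0.64 on the log2 scale, and the standard error of the log2 fold change of -0.64 was 0.07 (95% interval -0.79 to -0.49, edgeR adjusted p = 6.79e-06), so that NS-treated rd10 held 64.3% of the WT mean. The summed rod markers fell and the summed glial and microglial markers rose in the same libraries, their part in the fall was not tested, and in whole retina fewer cells of a type and less RNA per cell cannot be told apart.

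None of the 5 genes downstream of ATF4 passed the test. Ddit3 encodes CHOP, a transcription factor linked to cell death under prolonged ER stress, and stood at 25.8, 30.2 and 29.7 CPM in WT and 26.5, 33.3 and 28.9 CPM in NS-treated rd10. The groups overlapped, and the log2 fold change of 0.04 had a 95% interval from -0.17 to 0.26. Ddit3 overlaps Gm4189 and Mars on the other strand, and reads of these genes cannot be told apart since the protocol as described does not mark strand. Within each library, which needs no scaling between libraries, there were 8.56 to 9.51 Ddit3 counts per 100 Atf4 counts in WT and 13.3 to 15.8 in NS-treated rd10, a ratio chosen after its values were seen.

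Chac1, which encodes an enzyme that breaks down glutathione, had 4.04, 2.73 and 3.75 CPM in WT and 4.36, 5.83 and 3.75 CPM in NS-treated rd10. These are low levels, from 61 to 129 counts per library, and the groups overlapped at 3.75 CPM and above. Its log2 fold change of 0.40 had the widest interval of the members, from -0.06 to 0.86 (edgeR adjusted p = 0.121). Trib3, a pseudokinase that dampens ATF4 and AKT signalling, ranged from 4.22 to 5.01 CPM in WT and 4.33 to 5.74 CPM in NS-treated rd10, a log2 fold change of 0.10 (95% interval -0.26 to 0.45).

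Asns, the asparagine synthetase, had the narrowest interval of the 5. It measured 53.9 to 56.5 CPM in WT and 56.2 to 59.7 CPM in NS-treated rd10, a log2 fold change of 0.07 with a 95% interval from -0.05 to 0.20. Sesn2, a stress-induced protein that restrains mTORC1, measured 23.8 to 27 CPM in WT and 23.3 to 28.5 CPM in NS-treated rd10 (log2 fold change 0.02, 95% interval -0.19 to 0.22). The intervals of Asns, Sesn2 and Ddit3 thus stayed within 0.26 of 0 on the log2 scale.

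Among the genes of the unfolded protein response, Atf6 fell. It lies on chromosome 1 from 170704674 to 170867771 (- strand) and encodes the sensor that becomes a transcription factor after cleavage. It measured 141, 132 and 131 CPM in WT against 114, 105 and 107 CPM in NS-treated rd10, with no overlap. The log2 fold change was -0.31 (standard error 0.06, 95% interval -0.44 to -0.18, edgeR adjusted p = 0.000607), and the NS mean was 80.8% of the WT mean. The direction held in every alternative run, but the call was lost with limma on log2(FPKM + 1), where the value was -0.12 (limma adjusted p = 0.118), and the median of all genes was then 0.14 rather than 0.0053. Over all alternatives the edgeR, DESeq2 or limma adjusted p ran from 3.06e-05 to 0.119.

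Xbp1, the target of IRE1, measured 74.1, 80 and 84.6 CPM in WT and 82.2, 93.5 and 87.3 CPM in NS-treated rd10. The groups overlapped, with a log2 fold change of 0.14 (95% interval -0.01 to 0.28, edgeR adjusted p = 0.0953). Hspa5 encodes BiP, the ER chaperone that holds the sensors inactive, and measured 239, 237 and 244 CPM in WT and 260, 288 and 242 CPM in NS-treated rd10. Only NS replicate 3 lay within the WT range, and the log2 fold change was 0.13 (95% interval -0.01 to 0.27, edgeR adjusted p = 0.0994).

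Hsp90b1 encodes GRP94, the HSP90 of the ER. It measured 313, 309 and 299 CPM in WT and 286, 312 and 260 CPM in NS-treated rd10, a log2 fold change of -0.11 (95% interval -0.25 to 0.04). Of the 50-base stretches in its transcripts, 2.96% occur in the same orientation in genes outside the members, while the other members share 0%. Overlaps on the opposite strand, such as that of Ddit3 with Mars, and stretches shared between members were not counted. The outcome for the chaperones and Xbp1 depended on scaling and on single libraries. Without NS replicate 3 Hspa5 was called higher (0.19, edgeR adjusted p = 0.0193), without NS replicate 2 Hsp90b1 was called lower (-0.17, 0.0258) and without NS replicate 1 Xbp1 was called higher (0.17, 0.0434). With the trend with length and GC content removed Hspa5 was also called higher (0.17, edgeR adjusted p = 0.0293). With upper-quartile factors Hspa5 (0.16, edgeR adjusted p = 0.0412) and Xbp1 (0.17, edgeR adjusted p = 0.0449) were called higher, where 54.8% of all genes called were higher. With limma on log2(FPKM + 1) 5 members were called higher, namely Chac1 (0.41), Hspa5 (0.30), Xbp1 (0.28), Ddit3 (0.25) and Asns (0.24). The all-gene median was then 0.14, and 71.5% of all genes called were higher. With scaling to inner neuron markers 0 members were called higher and 3 lower, the third being Hsp90b1 (-0.26, edgeR adjusted p = 0.029). The all-gene median was then -0.16, and 33.6% of all genes called were higher.

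**Figure D2:**
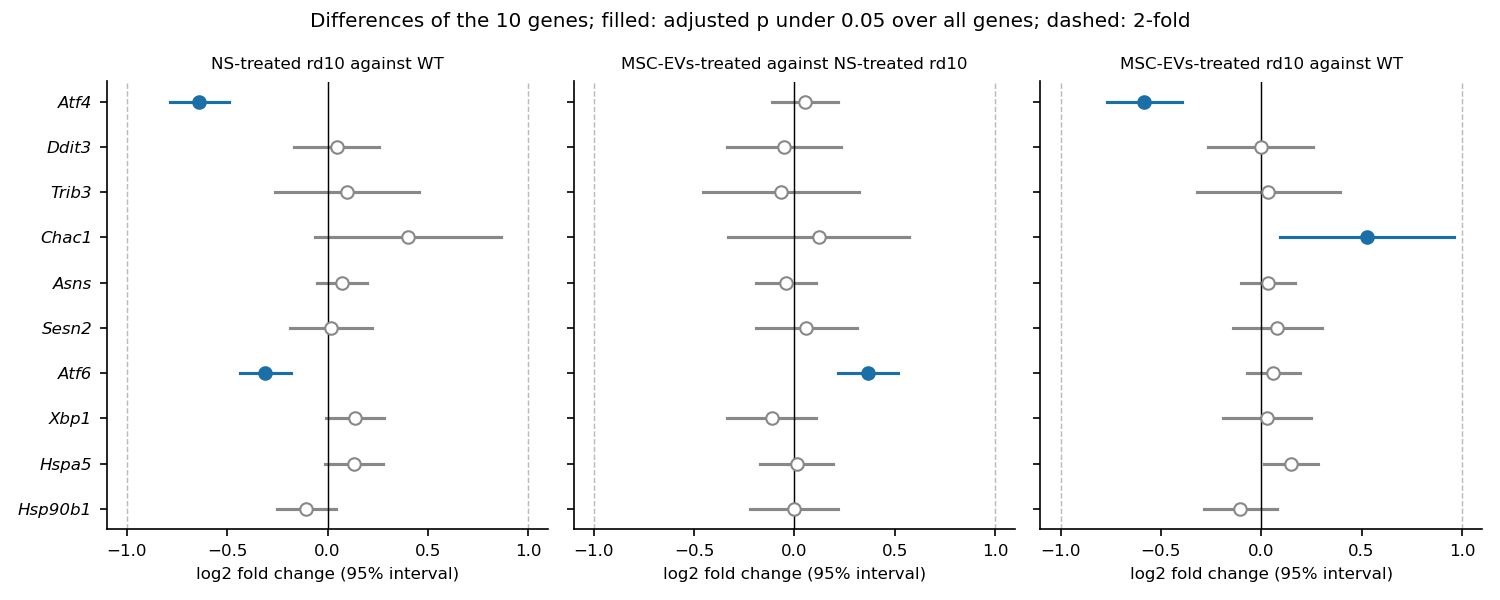
Log2 fold change of each gene (points) with its 95% interval (lines) in the 3 comparisons, filled where the edgeR adjusted p was under 0.05 over all genes tested, with dashed lines at a 2-fold difference. Atf4 is near -0.6 in both comparisons with WT and near 0 between the rd10 groups, Atf6 is the only filled point between the rd10 groups, and no interval reaches 2-fold.

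The second comparison asked what MSC-EVs changed against saline in rd10. Of the 10 genes 1 rose, Atf6, and 0 fell, where 0.914% of 14765 genes were called higher and 0.251% lower. Atf6 was also the 1 member whose groups did not overlap, against 26.3% of all genes. The members' median log2 fold change was 0.0044, beside -0.0016 over all genes, and all 10 intervals lay within 2-fold, between -0.45 and 0.57. No member fell at an unadjusted p under 0.05. DESeq2 called the same counts, 1 higher and 0 lower, where it called 930 of all 14765 genes. Cell type markers also moved between these groups: 2 of 8 gliosis genes rose (list median 0.48, summed 2207 to 2879 CPM with NS and 2759 to 3855 CPM with MSC-EVs), and 1 of 10 Müller glia genes and 1 of 21 inner neuron genes fell. Summed Müller glia markers did not overlap, at 7146 to 8666 CPM with NS and 6475 to 6678 CPM with MSC-EVs. Over all genes, 2980 of 14765 had an unadjusted p under 0.05 in this comparison. All 9 cone genes had negative log2 fold changes, 6 of them at an unadjusted p under 0.05 and 0 called by edgeR. Of 14 rod genes 0 were called (1 at an unadjusted p under 0.05), and of 12 microglia genes 0 (0). The part of these markers in the values below was not tested.

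The NS libraries held 114, 105 and 107 CPM of Atf6, and the MSC-EVs libraries 146, 131 and 142 CPM. The lowest MSC-EVs library lay above the highest NS library. The log2 fold change was 0.37 (standard error 0.07, 95% interval 0.22 to 0.52, edgeR adjusted p = 0.0423), and the MSC-EVs mean was 128% of the NS mean. Against WT the MSC-EVs libraries overlapped, with a log2 fold change of 0.06 (95% interval -0.07 to 0.19), although limma on log2(FPKM + 1) called it higher there (0.20, limma adjusted p = 0.0312) with an all-gene median of 0.12. The fall of Atf6 against WT and its rise with MSC-EVs both use the same 3 NS libraries.

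The call on Atf6 rested on small margins. It was lost without NS replicate 1 (0.40, edgeR adjusted p = 0.0533), NS replicate 2 (0.34, 0.137), NS replicate 3 (0.36, 0.2), MSC-EVs replicate 1 (0.34, 0.195) or MSC-EVs replicate 3 (0.35, 0.0713), and held without MSC-EVs replicate 2 (0.41, 0.0148). It was also lost with upper-quartile factors (edgeR adjusted p = 0.0528), with scaling to inner neuron markers (0.0728), and with limma on log2(FPKM + 1) (0.33, limma adjusted p = 0.0641). With the Y-linked level as a covariate the value was 0.40, and with MSC-EVs replicate 3 as the lone MSC-EVs library it was also 0.40. Y-linked RNA was high only in MSC-EVs replicates 1 and 2 and summed to 0.358 CPM in replicate 3. Both runs thus rest almost wholly on MSC-EVs replicate 3 and are not separate checks. The direction was positive in all of these, and the edgeR, DESeq2 or limma adjusted p over all alternatives ran from 0.00048 to 0.2.

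Transcript length moved with this comparison. The median log2 fold change of all genes ran from -0.13 in the 2950 genes with the shortest transcripts, where 3 genes were called higher and 18 lower, to 0.12 in the 2950 with the longest, where 77 were called higher and 5 lower. The longest Atf6 transcript has 7246 bases, within that longest class (5368 bases and over), while Ddit3 has 969 bases, Atf4 2019 and Hspa5 3672. Between NS and WT the same medians ran only from -0.0042 to 0.026. With each library's trend with length and GC content taken out, which was tried only once the data had been seen, Atf6 stood at 0.25 (edgeR adjusted p = 0.103) between the rd10 groups and at -0.26 (0.000766) in NS-treated rd10 against WT. The origin of the trend was not tested.

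**Figure D3:**
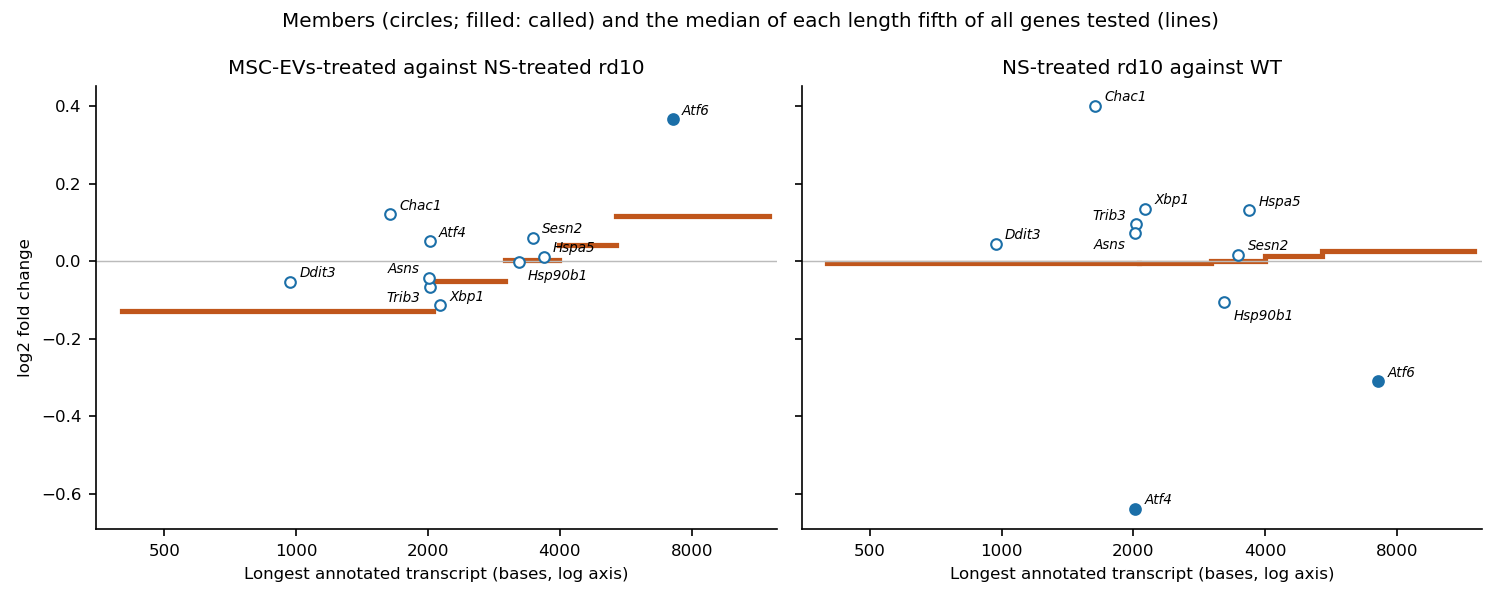
Log2 fold change of the 10 genes (circles, filled where called) against the length of the longest annotated transcript in bases on a log axis, with lines for the median of all genes in each of 5 length classes of about equal size, the outermost drawn only in part. With MSC-EVs against NS (left) the medians climb from -0.13 to 0.12 and Atf6 lies above the median of the longest class at 0.37, while for NS-treated rd10 against WT (right) they lie near 0 and Atf6 is at -0.31.

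The other 9 members did not pass the test between the rd10 groups. Atf4 measured 191, 225 and 215 CPM with MSC-EVs, a range that spans that of NS (200 to 211 CPM), with a log2 fold change of 0.05 (95% interval -0.11 to 0.21). Ddit3 measured 25.1, 33.4 and 26.8 CPM with MSC-EVs (-0.05, 95% interval -0.34 to 0.23), and Chac1 4.39, 5.21 and 5.43 CPM (0.12, 95% interval -0.33 to 0.57). Values for Trib3 (4.43 to 5.12 CPM), Asns (54.1 to 57.1 CPM) and Sesn2 (23.9 to 29.7 CPM) overlapped those of NS, with log2 fold changes of -0.07, -0.04 and 0.06.

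Nor did the chaperones and Xbp1 pass. In the MSC-EVs libraries Xbp1 measured 69.5, 90.7 and 81.8 CPM, and its log2 fold change was -0.11 (95% interval -0.34 to 0.11). Hspa5 measured 246, 282 and 266 CPM (0.01, 95% interval -0.17 to 0.19) and Hsp90b1 295, 311 and 247 CPM (-0.0027, 95% interval -0.22 to 0.21). In these 3 genes, as in Atf4, Ddit3 and Trib3, MSC-EVs replicate 2 was the highest of its group.

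The third comparison set MSC-EVs-treated rd10 against WT. Of the 10 genes 1 rose (Chac1) and 1 fell (Atf4), where 28.3% of 14623 genes were called higher and 27.2% lower, and 3 members, Atf4, Chac1 and Hspa5, did not overlap between the groups, against 65.2% of all genes. Atf4 fell by 0.58 on the log2 scale, a log2 fold change of -0.58 (standard error 0.08, 95% interval -0.77 to -0.40, edgeR adjusted p = 0.000336), to 66.4% of the WT mean. This comparison shares the WT libraries with the first. The rod markers were again lower in 14 of 14 genes, and their part was not tested.

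Chac1 rose from 2.73 to 4.04 CPM in WT in the MSC-EVs group to 4.39 to 5.43 CPM (log2 fold change 0.53, standard error 0.19, 95% interval 0.09 to 0.96, edgeR adjusted p = 0.0409). The call was lost without WT replicate 2 (0.37, edgeR adjusted p = 0.159), WT replicate 3 (0.57, 0.0771), MSC-EVs replicate 2 (0.50, 0.0611) or MSC-EVs replicate 3 (0.46, 0.0941), and with the Wald test of DESeq2 (0.53, adjusted p = 0.0597) or scaling to inner neuron markers (0.41, edgeR adjusted p = 0.12). It was also lost with the Y-linked covariate (0.64), a run that rests almost wholly on MSC-EVs replicate 3. The edgeR, DESeq2 or limma adjusted p over all alternatives ran from 0.00922 to 0.159. Hspa5 missed the threshold with a log2 fold change of 0.15 (95% interval 0.01 to 0.28, edgeR adjusted p = 0.0594). It was called higher with at least 10 counts in every library (0.16, edgeR adjusted p = 0.0409), without MSC-EVs replicate 1 (0.20, 0.0171), with MSC-EVs replicate 3 alone (0.15, 0.0399) and with limma on log2(FPKM + 1) (0.29, limma adjusted p = 0.00201). The remaining members lay between -0.10 (Hsp90b1) and 0.08 (Sesn2). Hsp90b1 stood at -0.31 with the Y-linked covariate and at -0.31 with MSC-EVs replicate 3 alone, and both runs rest almost wholly on that library. Asns was called higher with limma on log2(FPKM + 1) (0.18, limma adjusted p = 0.0205).

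Other genes of the pathway were counted from lists. Of 39 further targets of the integrated stress response, 37 were tested (Gdf15 and Fgf21 did not pass the filter) and 13 rose and 9 fell in NS-treated rd10 against WT, beside 31.2% and 30.1% of all genes. The median of the list was 0.00034. At 2-fold or more 5 rose and 0 fell, beside 9.16% and 3.56% of all genes. The 3 largest rises were those of Nupr1, a stress-induced chromatin protein, Cebpb, a transcription factor that pairs with ATF4 and CHOP, and Slc7a11, the cystine transporter.

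Nupr1 rose from 6.46, 8.42 and 6.76 CPM in WT to 78, 88.2 and 91.7 CPM in NS-treated rd10 (log2 fold change 3.57, standard error 0.10, edgeR adjusted p = 2.69e-10). Cebpb rose from 1.85 to 2.64 CPM to 15.2 to 20.8 CPM (3.10) and Slc7a11 from 4.4 to 5.91 CPM to 17.1 to 19.8 CPM (1.83). The other 2 that rose at least 2-fold, named after their values were seen, were Eif4ebp1, a translation inhibitor (1.83), and Atf3, a stress-induced transcription factor (1.26). Microglia and gliosis markers rose in the same libraries, and their part in these rises was not tested.

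The largest falls on this list were those of Vldlr, a lipoprotein receptor (-0.85), Iars, the isoleucine tRNA synthetase (-0.55), and Ddit4, an mTORC1 inhibitor (-0.49). Vldlr fell from 412, 406 and 444 CPM to 242, 239 and 218 CPM. With scaling to inner neuron markers, which moved the median of all genes to -0.16, 7 of the list rose and 16 fell. With limma on log2(FPKM + 1), which moved that median to 0.14, 16 rose and 3 fell. Of all genes called, 33.6% were higher with inner neuron scaling and 71.5% with limma.

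Of 30 ER chaperone and ERAD genes (ERAD clears misfolded ER protein), 5 rose and 7 fell, beside 31.2% and 30.1% of all genes, with a median of 0.06. The rises were led by Pdia3, a disulfide isomerase of glycoproteins (0.52), Dnajb9, a BiP co-chaperone and XBP1 target (0.50), and Canx, the lectin chaperone calnexin (0.28). Dnajb9 rose from 43.4 to 48.5 CPM in WT to 65.2 to 66.6 CPM. Falls were led by Pdia4 (-0.61), another disulfide isomerase, Creld2 (-0.58), an ER stress-induced protein, and Edem2 (-0.45), which trims mannose in ERAD. Pdia4 fell from 84.3 to 93.3 CPM to 53.4 to 62.7 CPM. None of the 30 was called at 2-fold or more, beside 9.16% of all genes higher and 3.56% lower. The call on Canx was lost with scaling to inner neuron markers (0.12, edgeR adjusted p = 0.255). With that scaling 2 of the list rose and 11 fell, where 33.6% of all genes called were higher. With limma on log2(FPKM + 1) 14 rose and 3 fell, where 71.5% of all genes called were higher.

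Of 23 sensor and eIF2 control genes, 22 were tested (not Ern2), and 4 rose and 10 fell, beside 31.2% and 30.1% of all genes, with a median of -0.16. Eif2ak2, which encodes the interferon-induced eIF2 kinase PKR, rose from 3.72 to 5.07 CPM in WT to 32.5, 18.1 and 19.8 CPM in NS-treated rd10 (log2 fold change 2.44, standard error 0.26, edgeR adjusted p = 0.000111). Creb3l1 (0.92) and Creb3l2 (0.55), ER-anchored transcription factors related to ATF6, also rose. Creb3l2 was called in the fit of all libraries but lost its call without WT replicate 1 (0.54, edgeR adjusted p = 0.1295), WT replicate 2 (0.58, 0.0895), WT replicate 3 (0.54, 0.134) or NS replicate 2 (0.51, 0.172), with upper-quartile factors (0.58, 0.051), inner neuron scaling (0.39, 0.0853), no filter on low counts (0.55, 0.104) or the trend with length and GC content removed (0.60, 0.0559), and its NS libraries spread from 55.8 to 95.8 CPM.

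The largest falls were those of Oma1 (-0.83), the mitochondrial protease that relays stress to the eIF2 kinase HRI, Eif2b3 (-0.49), a subunit of the eIF2 exchange factor, and Mbtps1 (-0.47). Mbtps1 encodes the site-1 protease that cleaves ATF6, and fell from 165, 154 and 167 CPM to 122, 111 and 119 CPM, with no overlap. Ern1, which encodes IRE1, was named after its values were seen. It fell from 43.6 to 48 CPM to 33.1 to 33.6 CPM (-0.44, edgeR adjusted p = 0.000123), while Eif2ak3, which encodes PERK, had 49.3 to 50.2 CPM in WT and 53.5 to 55.2 CPM in NS-treated rd10 (0.12, edgeR adjusted p = 0.0785). With scaling to inner neuron markers 3 of the list rose and 13 fell, where 33.6% of all genes called were higher. With limma on log2(FPKM + 1) 8 rose and 4 fell, where 71.5% of all genes called were higher.

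**Figure D4:**
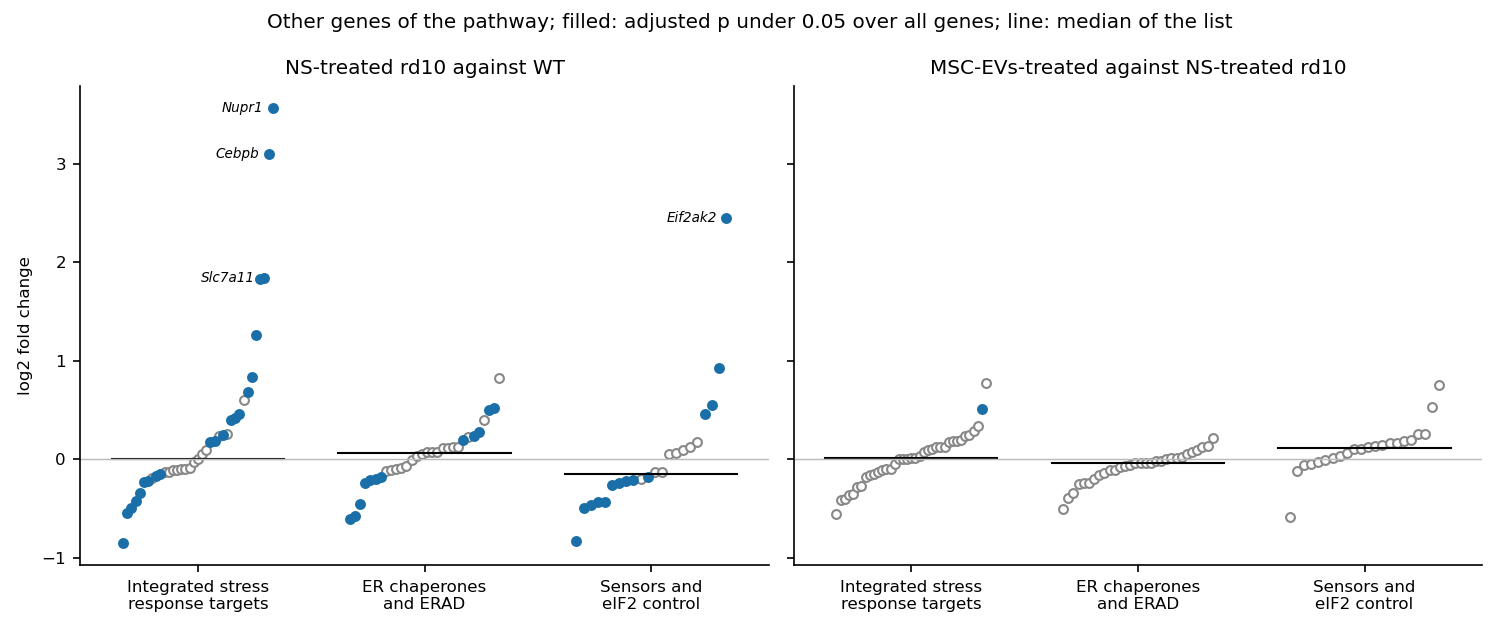
Log2 fold change of every tested gene of the 3 pathway lists, ordered within each list, for NS-treated rd10 against WT (left) and MSC-EVs-treated against NS-treated rd10 (right), filled where the edgeR adjusted p was under 0.05 and with a line at each list's median. On the left filled points lie on both sides of 0 and Nupr1, Cebpb, Slc7a11 and Eif2ak2 stand highest, while on the right 1 point, Tars, is filled.

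With MSC-EVs against NS, 1 of 37 integrated stress response targets rose and 0 fell, and 0 of 30 ER chaperone and ERAD genes and 0 of 22 sensor and eIF2 control genes were called by edgeR, beside 0.914% of all genes higher and 0.251% lower. At an unadjusted p under 0.05 there were 6 higher and 4 lower of the first list and 1 higher and 5 lower of the second. Of the third list 3 were higher and 1 lower, and 2980 of all 14765 genes tested passed this limit in either direction. DESeq2 called 4, 0 and 2 genes of the lists, where it called 930 of all 14765 genes, and limma on log2(FPKM + 1) called 1, 0 and 0. The shares of all genes above are those of edgeR. The list medians were 0.01, -0.04 and 0.11.

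The gene that rose was Tars, the threonine tRNA synthetase. The NS libraries held 47.7, 46.1 and 48 CPM of it, and the MSC-EVs libraries 67.2, 60 and 73.3 CPM (log2 fold change 0.51, standard error 0.09, edgeR adjusted p = 0.0333). In WT it was 57.1, 53.2 and 55.6 CPM, above every NS library and below every MSC-EVs library. The call was lost without NS replicate 1 (0.51, edgeR adjusted p = 0.0607), NS replicate 2 (0.49, 0.114), NS replicate 3 (0.52, 0.163), MSC-EVs replicate 1 (0.51, 0.149) or MSC-EVs replicate 3 (0.43, 0.0505), and with the trend with length and GC content removed (0.46, 0.0589). With the Y-linked level as a covariate the value was 0.65, a run that rests almost wholly on MSC-EVs replicate 3. Over all alternatives the adjusted p from edgeR, DESeq2 or limma ran from 7.19e-05 to 0.163.

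Against WT, MSC-EVs-treated rd10 showed 11 higher and 9 lower of the 37 targets, 7 higher and 8 lower of the 30 ER chaperone and ERAD genes and 4 higher and 6 lower of the 22 sensor and eIF2 control genes, beside 28.3% and 27.2% of all genes. Nupr1 (3.81), Cebpb (2.56) and Slc7a11 (2.18) again led the rises and Slc1a5 (-0.83), Vldlr (-0.72) and Ddit4 (-0.64) the falls. In the ER list Pdia3 (0.42), Sec61a1 (0.27) and Dnajb9 (0.26) led the rises and Pdia4 (-0.59), Creld2 (-0.58) and Edem2 (-0.46) the falls. In the third list Eif2ak2 (2.97), Creb3l1 (1.68) and Mbtps2 (0.34), the site-2 protease of ATF6, led the rises and Oma1 (-0.64), Eif2b3 (-0.47) and Mbtps1 (-0.34) the falls. Cebpb ranged widely among MSC-EVs libraries, with 9.66, 23.2 and 6.59 CPM. The call on Dnajb9 was lost without WT replicate 3 (0.21, edgeR adjusted p = 0.0622). That on Oma1 was lost without WT replicate 2 (-0.63, edgeR adjusted p = 0.0732), WT replicate 3 (-0.57, 0.0943) or MSC-EVs replicate 1 (-0.57, 0.0826). With the Y-linked level as a covariate the calls on Cebpb (1.58), Dnajb9 (0.17), Mbtps2 (0.27) and Oma1 (-0.26) were lost. With MSC-EVs replicate 3 alone, the library on which the covariate run also almost wholly rests, the calls on Dnajb9 (0.17) and Oma1 (-0.25) were lost. With scaling to inner neuron markers those on Pdia3 (0.31, edgeR adjusted p = 0.0548), Sec61a1 (0.15, 0.179), Dnajb9 (0.15, 0.208) and Mbtps2 (0.22, 0.0782) were lost, and with limma on log2(FPKM + 1) that on Oma1 (-0.41, limma adjusted p = 0.0522).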

How the data were processed

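The members and pathway lists were chosen with earlier results of these data known. RNA of 9 mouse retina libraries, 3 per group, was sequenced. The authors deposited estimated counts per gene and FPKM, which corrects counts for transcript length and library size. The submitters' processing notes name fastp, Bowtie2, HISAT2, StringTie 1.3.1 and RSEM, while their roles and the genome build are not given in the sources used here. Estimated counts were rounded to whole numbers. Genes were filtered with edgeR's filterByExpr, scaled by TMM and tested with edgeR 4.0.16 (glmQLFit, glmQLFTest, R 4.3.3) for each pair of groups, two-sided, with Benjamini-Hochberg adjustment over all genes tested and a threshold of 0.05. A 95% interval is that of the log2 fold change. Alternatives used DESeq2 1.42.0, limma 3.58.1 on log2(FPKM + 1) and log2(FPKM + 0.1), and other scalings, filters and libraries. The fit was tested on simulated data. All 10 members are named, and from each pathway list the 3 called genes with the largest change in each direction per comparison. Positions and transcript lengths came from GENCODE M21, which held 22232 of the 22337 gene identifiers. Depth limits low genes most: 1 count was 0.016 to 0.0513 CPM.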

Additional observations from a re-analysis of the deposited data

How the results depend on the processing

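Atf4 fell against WT in every alternative but a 2-fold limit, with NS-treated rd10 against WT between -0.80 and -0.45. The alternatives removing the trend with length and GC content (revised once after its results were seen) and using MSC-EVs replicate 3 alone were chosen after seeing the data. The Y-linked covariate sets MSC-EVs replicates 1 and 2 apart from every other library. Its results therefore rest almost wholly on MSC-EVs replicate 3, and it is no check separate from using that replicate alone. Where values below moved, the cause was not tested unless the setting itself uses fewer libraries or a stricter limit. Spread between libraries (coefficient of variation 7.97% to 12.5%) limits small changes, and low counts add to it for Chac1 and Trib3. The share of calls that were higher moved with scaling: for NS against WT it was 50.9%, and 33.6% with inner neuron markers and 71.5% with limma on FPKM. For MSC-EVs against NS it was 78.5%, and 63% with upper-quartile factors, 95.6% with inner neuron markers, 67.8% with DESeq2, 62.2% with all 9 libraries in one fit and 54.8% with limma on log2(FPKM + 1). For MSC-EVs against WT it was 51%, and 36.7% with inner neuron markers and 71.2% with limma on log2(FPKM + 1).

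For NS against WT, members called were 2 (Atf4 and Atf6, both lower), beside 8972 of all genes and at most 9110 in any alternative. With upper-quartile factors 4 were called (Hspa5 and Xbp1 also, both higher), with limma at either pseudocount 6 (only Atf4 lower) and at 2-fold 0. At 2-fold, 5 integrated stress response targets, 0 ER chaperone and ERAD genes, 1 sensor gene and 1863 of 8972 genes were called. Scaled to inner neuron markers, Ddit3 was -0.11, Trib3 -0.064, Asns -0.091, Sesn2 -0.14, Hspa5 -0.025 and Xbp1 -0.026. With limma Hsp90b1 was 0.0687 and 0.0693 at pseudocounts 1 and 0.1, and with the trend removed Sesn2 was -0.035.

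For MSC-EVs against NS, members called were 1, and 0 with upper-quartile factors, inner neuron markers, limma at either pseudocount, a 2-fold limit, the Y-linked covariate, the trend removed, or MSC-EVs replicate 3 alone. Called integrated stress response targets were 4 with DESeq2, 5 in one fit of 9 libraries, 0 at 2-fold, 0 with the trend removed and 3 with MSC-EVs replicate 3 alone. The one fit also called 3 ER chaperone and ERAD genes and 2 sensor genes, and DESeq2 2 sensor genes. All genes called were 172, and 68 with inner neuron markers, 930 with DESeq2, 1026 in one fit, 9 at 2-fold, 29 with the trend removed and 295 with MSC-EVs replicate 3 alone. Hspa5 was -0.023 with upper-quartile factors, -0.0068 with limma at both pseudocounts and -0.018 with the trend removed. With inner neuron markers Ddit3 was 0.00053, Asns 0.011 and Hsp90b1 0.052, and with the trend removed Ddit3 was 0.067, Trib3 0.038 and Asns 0.0014.

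For MSC-EVs against WT, members called were 2 (Chac1 higher, Atf4 lower), beside 8117 of all genes and at most 8426 in any alternative. With inner neuron markers or DESeq2 1 was called (Atf4, lower), and at 2-fold 0. With limma at either pseudocount 5 were called (Chac1, Asns, Hspa5 and Atf6 higher, Atf4 lower). At 2-fold, 5 targets, 0 ER chaperone and ERAD genes, 2 sensor genes and 1784 of 8117 genes were called. Ddit3 was 0.0046 with DESeq2 size factors, 0.00499 with the DESeq2 Wald test, 0.013 with at least 10 counts in every library, 0.15 with limma at both pseudocounts and 0.12 with the trend removed. Hsp90b1 was 0.044 with limma at both pseudocounts. With inner neuron markers Trib3 was -0.080, Asns -0.081, Sesn2 -0.036, Xbp1 -0.087 and Atf6 -0.055. Trib3 was -0.0097 with the Y-linked covariate and -0.00397 with MSC-EVs replicate 3 alone, and Atf6 was -0.012 with the trend removed.

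Leaving out 1 library gave 2 to 3 members called for NS against WT (7799 to 9110 of all genes), 0 to 1 for MSC-EVs against NS and 1 to 3 for MSC-EVs against WT (6517 to 8426 of all genes). For MSC-EVs against NS it gave 0 to 4 targets, 0 to 1 sensor genes and 0 to 676 genes in all, with 0 without NS replicate 3 or MSC-EVs replicate 1, 32 without NS replicate 2 and 676 without MSC-EVs replicate 2. For MSC-EVs against WT it gave 7 to 15 ER chaperone and ERAD genes. Log2 fold changes that changed sign ranged, for NS against WT, from -0.048 to 0.11 for Ddit3, -0.019 to 0.18 for Trib3 and -0.043 to 0.096 for Sesn2. For MSC-EVs against NS they ranged from -0.18 to 0.041 for Ddit3, -0.16 to 0.051 for Trib3, -0.0087 to 0.31 for Chac1, -0.018 to 0.15 for Sesn2, -0.046 to 0.082 for Hspa5 and -0.070 to 0.086 for Hsp90b1. For MSC-EVs against WT they ranged from -0.13 to 0.083 for Ddit3, -0.031 to 0.093 for Trib3 and -0.067 to 0.13 for Xbp1.

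The groups share replicate numbers but the labels give no shared animal or day, so the numbers were not taken as pairs. The paper states that rd10 littermates received either MSC-EVs or NS, but which libraries came from littermates is not given. Deviations of same-numbered libraries correlated at 0.0903, 0.178 and 0.284 between MSC-EVs and NS. In the comparisons with WT these correlations lay between -0.0726 and 0.0686. With a replicate block, MSC-EVs against NS gave 1 member, 2 targets and 403 genes in all, beside 172 genes without it. In this comparison each NS library correlated best with the MSC-EVs library of its own number. The block left 1 member called for MSC-EVs against WT, Chac1 being at 0.53 (edgeR adjusted p = 0.0549), and 2 for NS against WT.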

Other observations

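In each of the NS libraries there were more Hspa5 counts per 100 Hsp90b1 counts (91.1 to 93.1) than in WT (76.3 to 81.6), a within-library ratio chosen after its values were seen, and the MSC-EVs libraries ran from 83.3 to 108. Neither gene passed edgeR's test between NS and WT. Between MSC-EVs and NS, several pathway genes chosen after their values were seen did not overlap yet missed the threshold, where 26.3% of all genes did not overlap. Atf3, a stress-induced transcription factor, ran from 15.1 to 18 CPM in NS and from 21.3 to 35.9 CPM in MSC-EVs libraries (log2 fold change 0.77, edgeR adjusted p = 0.0851). Ern1, which encodes the sensor IRE1, lay between 33.1 and 33.6 CPM in NS and between 38.3 and 41.2 CPM in MSC-EVs libraries (0.26, edgeR adjusted p = 0.0997). Dnajb9, a target of XBP1, stood at 65.2 to 66.6 CPM in NS and at 51.8 to 59 CPM in MSC-EVs libraries (-0.24, edgeR adjusted p = 0.103).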
